A study of Mus musculus with 12 samples.

Results

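The genes described here build and mark the mitotic chromosome: 7 condensin subunit genes (Smc2, Smc4, Ncapd2, Ncapg, Ncaph, Ncapd3 and Ncapg2), the topoisomerase gene Top2a, the chromosome surface protein gene Mki67 and the passenger complex gene Birc5. They were chosen by name, and each of the 10 had 1 probe set among the 25206 of the array table, found through its gene number. The samples were RNA from female C57BL/6 mouse pluripotent cells in feeder-free 2iLIF medium, loaded with the dye tetramethylrhodamine methyl ester (TMRM), which gathers in mitochondria with their membrane potential, and flow-sorted. The 4 groups were iPSC high, iPSC low, ESC high and ESC low, where iPSC are induced pluripotent stem cells, ESC are embryonic stem cells, and high and low name the sorted membrane potential fraction. Each group held 3 Affymetrix arrays, numbered 2, 3 and 4 in the labels. The labels give neither the number of lines or clones behind each cell type nor the sort limits, and do not say that arrays of a group came from separate cultures, so p-values cover no more than the spread among these samples, part or all of which may be technical.

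Condensins are ring-shaped ATPase complexes that fold chromatin into compact mitotic chromosomes. Both kinds share the SMC2 and SMC4 arms. Condensin I adds NCAPD2, NCAPG and NCAPH and reaches the chromosomes after the nuclear envelope breaks down, while condensin II adds NCAPD3, NCAPG2 and NCAPH2 and is nuclear through interphase. Topoisomerase II alpha, the product of Top2a, passes one DNA duplex through another and so removes the tangles between sister chromatids. Ki-67, from Mki67, coats the mitotic chromosome surface, and survivin, from Birc5, recruits the Aurora B kinase to centromeres. Mouse pluripotent cells divide fast with short gap phases, and transcripts of many genes of this kind peak in G2 and mitosis.

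All values are log2 expression on the authors' RMA scale, and the number of arrays limits their precision. Array medians were 3.57 to 3.61 in iPSC high, 3.51 to 3.57 in iPSC low, 3.54 to 3.59 in ESC high and 3.52 to 3.56 in ESC low, and Pearson correlations across probe sets were 0.991 to 0.994 within groups and 0.986 to 0.994 between groups, with 0 identical arrays. All 10 pluripotency markers averaged above the array median in every group, as did all 10 of the chromosome genes. In each group 5 of 6 neural, 3 of 6 endoderm, 2 of 6 mesoderm and 4 of 10 fibroblast markers did so too. Standing above the array median therefore does not by itself tell cell types apart. None of the 10 pluripotency markers, 10 fibroblast markers, 6 mesoderm, 6 endoderm and 6 neural markers passed the test between fractions (0, 2, 0, 1 and 1 of them at an unadjusted p under 0.05). Of 7 blood and macrophage markers 1 rose in the high fraction, Cd68, which codes a lysosomal glycoprotein (0.82 ± 0.09; adjusted p = 0.000828, limma), and it alone of the 7 lay above the array median. The pan-leukocyte marker Ptprc was at -0.05 ± 0.07. The mean of the 7 spanned 3.30 to 3.50 in iPSC high, 3.18 to 3.39 in iPSC low, 3.28 to 3.34 in ESC high and 3.15 to 3.26 in ESC low, and the part of Cd68 and this list in the results was not tested. The arrays carry no detection calls, so a low value cannot be called absent. RNA came from bulk fractions, in which a larger share of cells in one cell cycle phase and more mRNA per cell cannot be told apart.

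Top2a was the one gene of the 10 called higher in the high fraction (adjusted p under 0.05, limma), and it was called in both cell types. In counts of genes, rose and fell mean called at this threshold. Top2a read 9.82, 9.86 and 9.82 in iPSC high, against 9.41, 9.33 and 9.31 in iPSC low. It read 9.61, 9.67 and 9.72 in ESC high, against 9.16, 9.20 and 9.24 in ESC low. Every high array stood above every low array, and the 4 groups were fully apart, in the order iPSC high, ESC high, iPSC low and ESC low. Of all probe sets, 0.111% had 4 groups without any overlap, in any order. Over both cell types Top2a was higher in the high fraction by 0.47 ± 0.06 on the log2 scale (SE), a 1.39-fold difference (adjusted p = 0.000974, limma). The log2 difference was 0.48 ± 0.08 in iPSC (adjusted p = 0.0227, limma) and 0.47 ± 0.08 in ESC (adjusted p = 0.0292, limma). All 6 numbered high-low pairs lay above 0, between 0.41 and 0.52. The iPSC difference minus the ESC difference was 0.01, with a 95% interval from -0.23 to 0.26. The call over both cell types held without each of the 12 arrays in turn. With 1 array fewer the call within ESC was lost in 7 cases (any ESC array, or iPSC low replicate 3, with adjusted p from 0.0502 to 0.124, limma) and the call within iPSC in 5 (iPSC low replicate 3 or 4, or any iPSC high array, 0.0593 to 0.0932). In fits to the 6 arrays of a cell type alone the adjusted p was 0.0698 in iPSC and 0.154 in ESC.

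**Figure D1:**
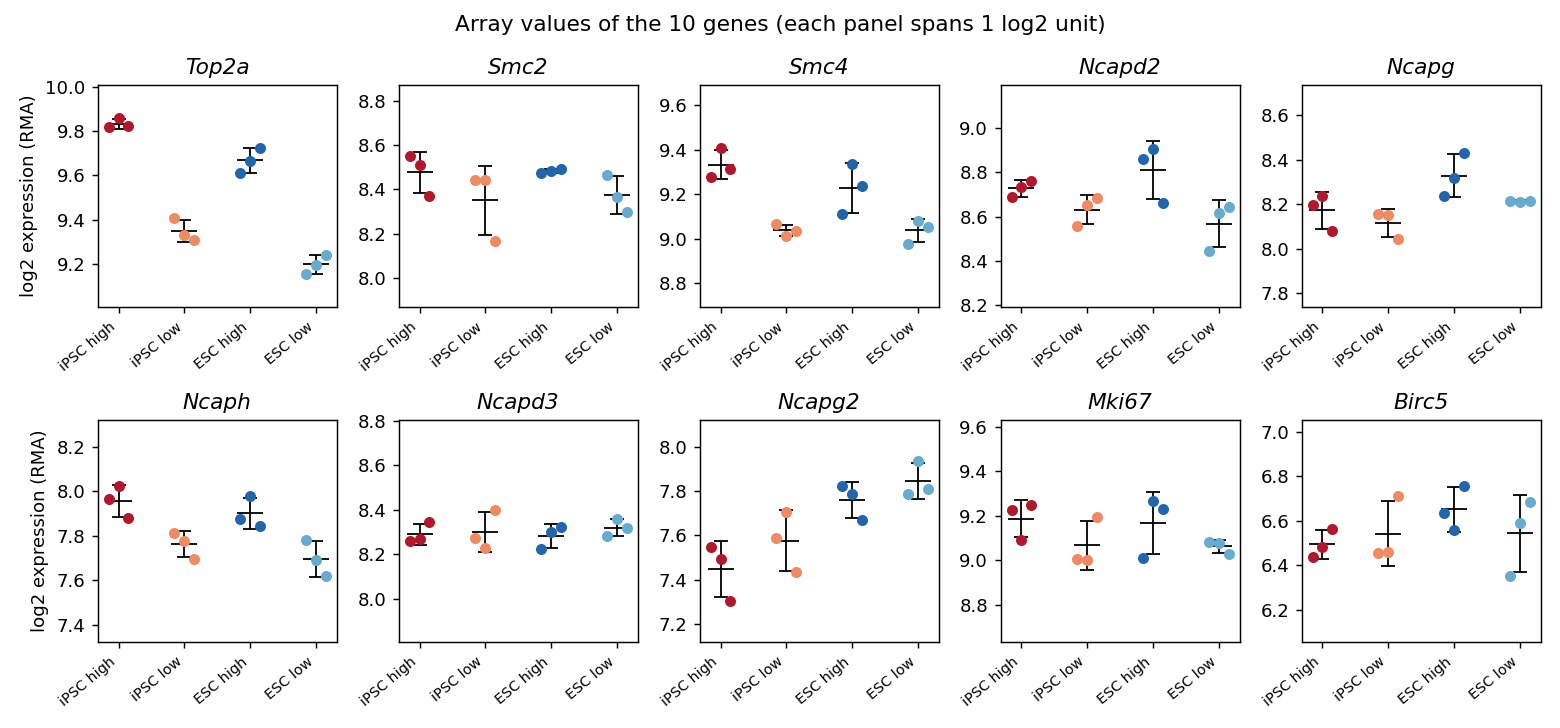
Each panel plots the log2 expression of 1 gene on the 3 arrays of iPSC high, iPSC low, ESC high and ESC low; points are arrays, and bars are the mean and SD. The 4 groups of Top2a are fully apart, from 9.16 on the lowest ESC low array to 9.86 on the highest iPSC high array. Each of the other genes has groups that overlap.

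Promoter windows of 4 of the genes are shown because they run from the richest in matches to the motifs searched to one without a match. The sequences are from RefSeq on GRCm38.p6, the gene's own strand, 250 bases before the annotated start and 30 bases after it. Capitals mark matches to the CHR element (TTTGAA or TTCGAA), which binds the MuvB complexes that set G2/M transcription, the CCAAT box (CCAAT), bound by NF-Y, and the E2F site (TTCGCGC or TTGGCGC). Both strands were searched, so ATTGG and TTCAAA mark CCAAT and TTTGAA on the other strand, and no matches overlapped. The windows are Top2a at chr11:99024160-99024439 (minus strand), the condensin I gene Ncapd2 at chr6:125191557-125191836 (minus strand), Mki67 at chr7:135716350-135716629 (minus strand) and Birc5 at chr11:117848987-117849266 (plus strand).
Top2a: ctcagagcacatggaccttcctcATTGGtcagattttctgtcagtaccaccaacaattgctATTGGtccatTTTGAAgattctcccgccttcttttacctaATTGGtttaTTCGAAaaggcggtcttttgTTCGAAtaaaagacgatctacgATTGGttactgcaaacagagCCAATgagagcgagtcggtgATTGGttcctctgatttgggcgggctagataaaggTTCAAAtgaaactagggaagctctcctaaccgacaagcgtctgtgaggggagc
Ncapd2: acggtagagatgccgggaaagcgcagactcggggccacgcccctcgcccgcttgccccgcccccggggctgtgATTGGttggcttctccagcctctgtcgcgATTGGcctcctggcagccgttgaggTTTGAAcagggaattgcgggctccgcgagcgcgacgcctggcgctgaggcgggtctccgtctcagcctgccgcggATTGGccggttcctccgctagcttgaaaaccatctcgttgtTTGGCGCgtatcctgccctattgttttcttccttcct
Mki67: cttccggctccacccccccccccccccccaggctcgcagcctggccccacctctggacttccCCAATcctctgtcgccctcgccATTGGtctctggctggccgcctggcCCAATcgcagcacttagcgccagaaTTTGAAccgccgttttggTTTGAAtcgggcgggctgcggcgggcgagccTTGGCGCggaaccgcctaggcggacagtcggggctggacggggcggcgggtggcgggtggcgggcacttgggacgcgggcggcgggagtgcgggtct
Birc5: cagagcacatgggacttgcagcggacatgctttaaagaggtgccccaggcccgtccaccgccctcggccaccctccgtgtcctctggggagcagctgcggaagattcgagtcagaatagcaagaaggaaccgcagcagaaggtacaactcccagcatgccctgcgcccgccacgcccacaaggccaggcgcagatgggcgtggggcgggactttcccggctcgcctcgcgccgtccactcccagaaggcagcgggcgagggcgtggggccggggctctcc

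Over the full window, with 50 bases after the start, Top2a held 6 CCAAT boxes and 4 CHR elements, and 0.0791% of the 32851 RefSeq windows held as many CCAAT boxes. Ncapd2 held 3 CCAAT boxes, 1 CHR element and 1 E2F site, and Mki67 held 3, 2 and 1. Birc5 held none of these letters in its window. Sequence past the window and other forms of the motifs were not searched, so the gene may hold such elements elsewhere. Smc2 held 1 CCAAT box and 2 CHR elements, and Ncapg held 1 of each. Ncapg2 held 1 CHR element, and Ncaph 1 E2F site. Ncapd3 has 2 annotated starts, with an E2F site at the upstream one and a CHR element at the downstream one. The table has a window for 9 of the 10 genes, and Smc4 was not among them. Of the 10 windows of these 9 genes, 7 held a CHR element, 5 a CCAAT box and 4 an E2F site, against 19.2%, 37.4% and 3.89% of all windows. Mki67 and Ncapd2 hold all 3 motifs and did not pass the test between fractions. Whether the motifs bear on the differences between fractions was not tested. These matches are letters in a window, not measured binding.

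**Figure D2:**
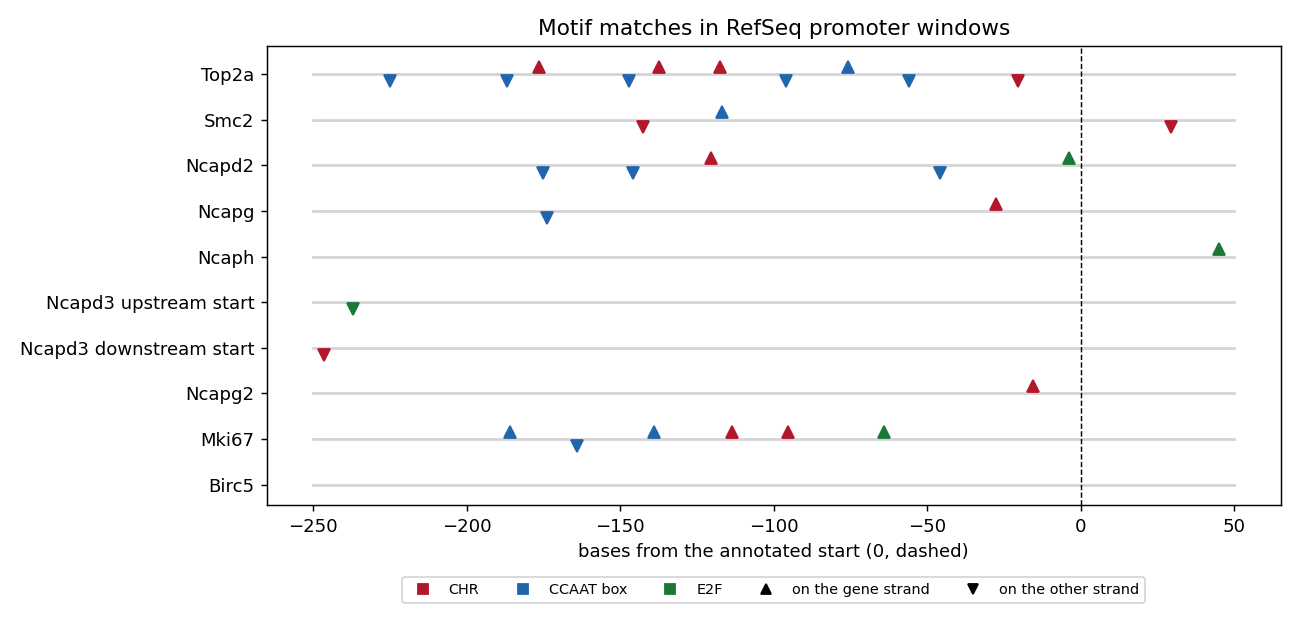
Positions of CHR, CCAAT and E2F matches along 10 RefSeq promoter windows of 9 genes, in bases from the annotated start (dashed line), with upward triangles on the gene's strand and downward ones on the other. The Top2a window holds 6 CCAAT boxes and 4 CHR elements, and the Birc5 window holds no match.

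The shared condensin arms had small differences that did not pass the test. Smc4, an ATPase arm of both condensins, read 9.28, 9.41 and 9.31 in iPSC high, against 9.06, 9.01 and 9.04 in iPSC low. It read 9.11, 9.34 and 9.24 in ESC high, against 8.98, 9.08 and 9.05 in ESC low. High arrays stood above low arrays in both cell types, with all 6 numbered pairs above 0. The Smc4 difference over both cell types was 0.24 ± 0.06 (adjusted p = 0.0620, limma), with a 95% interval from 0.11 to 0.38 that is not adjusted for the number of probe sets. The call on Smc4 depended on the setting: adjusted p = 0.00873 with an intensity trend in limma's variance prior and 0.0304 when dim probe sets were left out. Its partner Smc2 was at 0.12 ± 0.07 (adjusted p = 0.464, limma), with all 6 pairs above 0, between 0.01 and 0.20. Smc2 arrays were apart in ESC, at 8.47 to 8.49 in ESC high and 8.30 to 8.46 in ESC low, and overlapped in iPSC, at 8.37 to 8.55 in iPSC high and 8.17 to 8.44 in iPSC low.

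The condensin I subunits all lay above 0 in the high fraction, and none passed the test. Ncaph, the kleisin that closes the condensin I ring, read 7.97, 8.02 and 7.88 in iPSC high, against 7.81, 7.78 and 7.70 in iPSC low. It read 7.88, 7.98 and 7.85 in ESC high, against 7.78, 7.69 and 7.62 in ESC low. The high and low arrays of Ncaph did not overlap in either cell type, and the difference over both was 0.20 ± 0.06 (adjusted p = 0.126, limma). Ncapd2, a HEAT-repeat subunit, read 8.69, 8.73 and 8.76 in iPSC high, against 8.56, 8.65 and 8.68 in iPSC low. It read 8.86, 8.90 and 8.66 in ESC high, against 8.45, 8.61 and 8.64 in ESC low. The groups of Ncapd2 were apart in both cell types but nearly touched, and the difference over both was 0.17 ± 0.07 (adjusted p = 0.243, limma). Its numbered pairs spread from 0.02 to 0.41, both ends from ESC. Ncapg, the second HEAT-repeat subunit, was at 0.09 ± 0.06 (adjusted p = 0.564, limma), with 6 of 6 pairs above 0. Its arrays were apart in ESC, at 8.24 to 8.43 in ESC high and 8.21 to 8.22 in ESC low, and overlapped in iPSC, at 8.08 to 8.24 in iPSC high and 8.04 to 8.15 in iPSC low.

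Over both cell types the condensin II subunits lay at or below 0. Ncapd3, the HEAT-repeat partner in condensin II, ranged from 8.26 to 8.34 in iPSC high and from 8.23 to 8.40 in iPSC low. It ranged from 8.22 to 8.32 in ESC high and from 8.28 to 8.36 in ESC low, so that the fractions overlapped in both cell types. The Ncapd3 difference over both was -0.02 ± 0.06 (adjusted p = 0.889, limma), with a 95% interval from -0.15 to 0.10. Ncapg2 read 7.55, 7.49 and 7.31 in iPSC high, against 7.59, 7.71 and 7.44 in iPSC low. It read 7.82, 7.79 and 7.67 in ESC high, against 7.79, 7.94 and 7.81 in ESC low. The fractions of Ncapg2 overlapped, 5 of 6 pairs lay below 0, and the difference was -0.11 ± 0.07 (adjusted p = 0.534, limma). Ncaph2, the kleisin of condensin II, is not one of the 10 and was at 0.00 ± 0.08 over both cell types (adjusted p = 0.987, limma). Within a cell type Ncaph2 was at -0.07 in iPSC and 0.06 in ESC. Set side by side over both cell types, Ncapd2 minus Ncapd3 was 0.19, Ncapg minus Ncapg2 was 0.19, and Ncaph minus Ncaph2 was 0.20 log2 units. The values were less alike within a cell type. In the same order they were 0.11, 0.18 and 0.26 in iPSC and 0.28, 0.20 and 0.14 in ESC. These differences between subunit pairs carry no test, and which probes each probe set holds differs between genes.

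Mki67 and Birc5, both used as labels of proliferating cells, did not pass the test. Mki67 read 9.22, 9.09 and 9.25 in iPSC high, against 9.01, 9.00 and 9.19 in iPSC low. It read 9.01, 9.27 and 9.23 in ESC high, against 9.08, 9.08 and 9.03 in ESC low. The fractions overlapped in both cell types, 5 of 6 pairs lay above 0, and the difference was 0.11 ± 0.07 (adjusted p = 0.478, limma). Birc5 read 6.44, 6.48 and 6.56 in iPSC high, against 6.45, 6.46 and 6.71 in iPSC low. It read 6.63, 6.56 and 6.76 in ESC high, against 6.35, 6.59 and 6.68 in ESC low. The Birc5 fractions overlapped, 3 of 6 pairs lay above 0, and the difference was 0.03 ± 0.08 (adjusted p = 0.894, limma; 95% interval -0.14 to 0.20), or -0.01 with arrays centred on their medians.

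**Figure D3:**
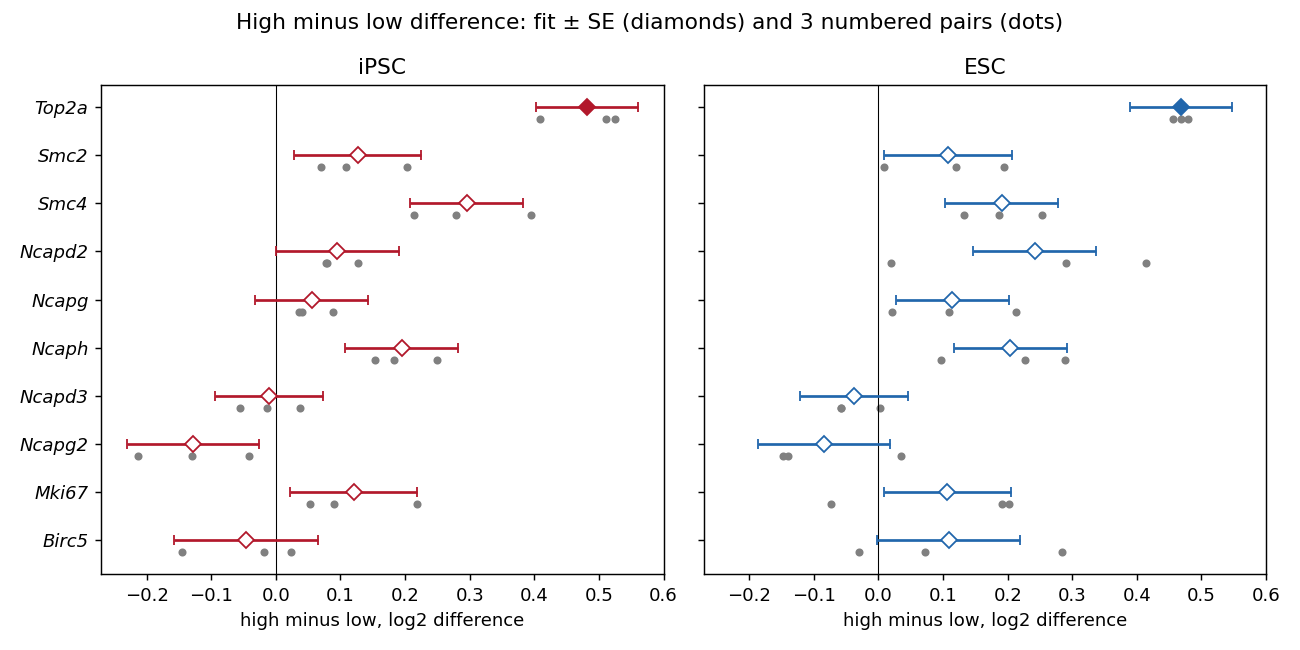
High minus low log2 differences of the 10 genes in iPSC (left) and ESC (right); diamonds with bars are limma estimates ± SE, filled where the adjusted p is under 0.05, and dots are the 3 numbered pairs. Top2a is the filled gene in both panels, at 0.48 in iPSC and 0.47 in ESC, and Ncapd3 and Ncapg2 lie at or left of 0.

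Of the 10 genes, 1 was called higher and 0 lower over both cell types, and the same count held within iPSC and within ESC. Among all probe sets 2.50% were called, 1.60% higher and 0.905% lower, over both cell types (403 and 228 probe sets, or 361 and 368 with arrays centred on their medians). Within iPSC 0.547% were called, 0.349% higher and 0.198% lower (88 and 50, or 70 and 85 with centring). Within ESC 0.357% were called, 0.305% higher and 0.0516% lower. These backgrounds rest on few arrays: the 138 probe sets called in iPSC were 208 without iPSC low replicate 2, and 1 to 60 without any other iPSC array. The 90 called in ESC were 19 to 43 without ESC high replicate 2 or 3 or ESC low replicate 2 or 4. The median log2 difference of the 10 was 0.12 over both cell types, 0.11 in iPSC and 0.11 in ESC, beside 0.00 over all probe sets in each. High arrays stood above low arrays for 4 of the 10 genes in iPSC, where 9.76% of all probe sets did so, and for 6 in ESC, where 6.71% did. They did so in both cell types for 4 genes, Top2a, Smc4, Ncaph and Ncapd2, beside 1.98% of all probe sets. High arrays stood wholly below low arrays for 0 of the 10 in either cell type, beside 9.57% of all probe sets in iPSC and 6.36% in ESC. The iPSC difference minus the ESC difference was called for 0 of the 10 genes (0% of all probe sets, limma), and ranged from -0.16 for Birc5 to 0.10 for Smc4. None of the 10 had an unadjusted p under 0.05 there, the lowest being 0.296 for Ncapd2, and the replicate block also called 0.

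Genes that act beside these proteins on the mitotic chromosome were counted from lists written for this purpose. The counts are over both cell types, where 1.60% of all probe sets were called higher and 0.905% lower. Of 7 genes of the chromosomal passenger complex and its recruitment to centromeres, 2 rose and 0 fell, and all 7 lay above 0 (median 0.22). Those that rose were the kinase Aurkb (0.68 ± 0.07; adjusted p = 0.000448, limma) and the scaffold Incenp (0.60 ± 0.06; adjusted p = 0.000593, limma), partners of survivin, whose own gene Birc5 was at 0.03. The borealin gene Cdca8 was at 0.22 ± 0.07 and the histone H3 kinase gene Haspin at 0.29 ± 0.10, neither past the threshold. Of 7 chromosome periphery and chromokinesin genes, 3 rose and 0 fell, with a median of 0.33. They were Nusap1, which bundles spindle microtubules at chromosomes (0.70 ± 0.06), Cdca2, a phosphatase targeting subunit that shares its phosphatase-binding motif with Ki-67 (0.59 ± 0.07), and the chromokinesin Kif4, which acts with condensin on chromosome arms (0.48 ± 0.07). The chromokinesin Kif22 was at 0.33 ± 0.09 (adjusted p = 0.0704, limma). The 1 gene of this list below 0 was the phosphatase subunit Ppp1cc at -0.33 ± 0.18, named after its value was seen. Mcph1, which restrains condensin II before mitosis, was at 0.15 ± 0.07 (adjusted p = 0.300, limma).

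The other structural maintenance of chromosomes complexes and topoisomerases did not pass the test. In cohesin and its regulators, 0 of 16 genes were called by limma, with 1 higher and 1 lower at an unadjusted p under 0.05 and a median of 0.00. There Espl1, the separase that opens cohesin at anaphase, was at 0.28 ± 0.07 (adjusted p = 0.0553, limma). The acetyltransferase Esco2 was at 0.13 ± 0.07, the cohesin arm Smc3 at -0.10 ± 0.06 and the deacetylase Hdac8 at -0.21 ± 0.09. In the SMC5/6 complex 0 of 9 were called by limma (1 lower at an unadjusted p under 0.05, median -0.10). The subunit Eid3 was at -0.59 ± 0.15, with an adjusted p of 0.0537 and, fitted with the replicate block, of 0.0302 (limma). Nsmce1 was at 0.13 ± 0.07, Slf2 at -0.12 ± 0.07 and the arm Smc6 at -0.09 ± 0.06. Of 10 other topoisomerases and their repair enzymes 0 were called by limma (1 higher and 2 lower at an unadjusted p under 0.05, median -0.05). Top2b, the paralog that also serves cells out of cycle, was at -0.19 ± 0.08 (adjusted p = 0.254, limma), opposite in sign to Top2a. The mitochondrial Top1mt was at -0.27 ± 0.09 and the repair enzyme Tdp1 at 0.16 ± 0.07, and Rmi1 at 0.11 ± 0.08. Of 8 other genes of the inhibitor of apoptosis family, to which Birc5 belongs, 0 were called by limma (1 higher at an unadjusted p under 0.05, median -0.01). Naip5, a sensor of bacterial flagellin, was at 0.39 ± 0.11 and the caspase inhibitor Xiap at -0.14 ± 0.08. Birc3 was at 0.13 ± 0.09 and Naip6 at 0.11 ± 0.14. Of the 8, 4 averaged above the array median in iPSC low, ESC high and ESC low, and 5 in iPSC high. Part of this list therefore read low.

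Some genes of 2 cell cycle phase lists were also called between the fractions, and their part in the Top2a result was not tested. Of 23 other G2/M genes 14 rose and 0 fell (median 0.34), or 9 without ESC high replicate 3. Among all probe sets 1.60% were called higher and 0.905% lower over both cell types. Among them were the kinase Aurka (0.85 ± 0.09), the ubiquitin-conjugating enzyme Ube2c (0.71 ± 0.06), the midzone protein Prc1 (0.72 ± 0.08) and the kinetochore protein Cenpf (0.72 ± 0.08). The mean log2 level of the 23 spanned 8.40 to 8.48 on iPSC high arrays and 8.04 to 8.12 on iPSC low arrays. It spanned 8.30 to 8.45 on ESC high arrays and 7.98 to 8.02 on ESC low arrays, apart in both cell types. Of 20 G1/S genes 0 rose and 4 fell (median -0.14). They were the cyclin Ccne2 (-0.74 ± 0.09), the replication licensing factor Cdc6 (-0.46 ± 0.08), the uracil glycosylase Ung (-0.51 ± 0.09) and the histone mRNA-binding Slbp (-0.32 ± 0.07). The mean of the 20 spanned 8.03 to 8.11 in iPSC high, 8.29 to 8.35 in iPSC low, 8.16 to 8.26 in ESC high and 8.34 to 8.37 in ESC low. Within the G2/M list the cyclin gene Ccna2 at 0.03 ± 0.06, Mad2l1 at 0.07 ± 0.06 and Ccnb2 at 0.13 ± 0.09 were not past the threshold, and were picked out after their values were seen.

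**Figure D4:**
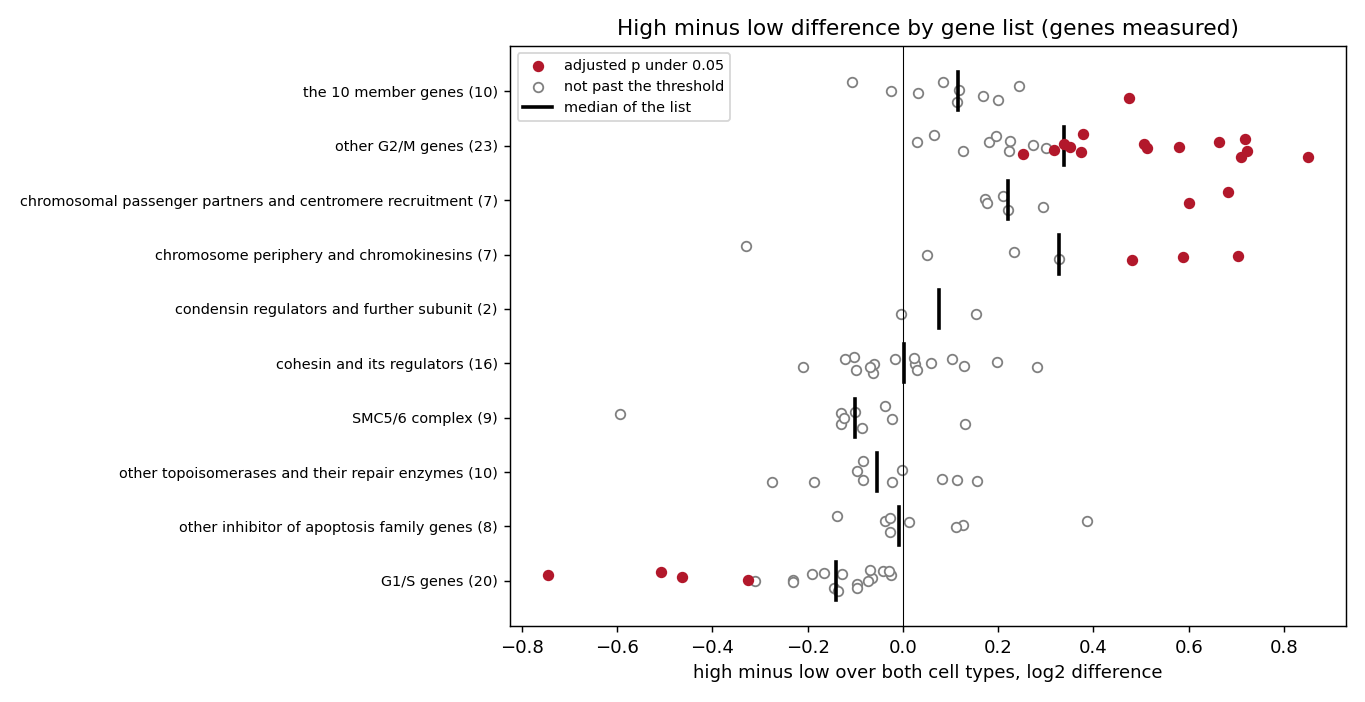
High minus low log2 differences over both cell types for the 10 genes and 9 further lists; each point is a gene, filled red where the adjusted p is under 0.05, and black bars are list medians. The 10 genes have a median of 0.12, between the other G2/M genes at 0.34 and the G1/S genes at -0.14.

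Between cell types, none of the 10 genes passed the test over both fractions (0 higher and 0 lower in iPSC than in ESC). Among all probe sets 2.87% were called, 0.916% higher and 1.96% lower in iPSC. With an unadjusted p under 0.05 there were Ncapg2 and Top2a. Ncapg2 was lower in every iPSC array than in every ESC array of the same fraction, with values given above, and 2.73% of all probe sets were. The Ncapg2 difference was -0.29 ± 0.07, a 0.818-fold level (adjusted p = 0.0538, limma). The call on Ncapg2 changed with the setting: adjusted p = 0.0433 with arrays centred, 0.0232 with an intensity trend and 0.0251 without dim probe sets, but 0.0908 when high and low arrays of the same number were treated as correlated pairs (a random block in limma). Top2a stood higher in iPSC than in ESC within each fraction without overlap, as 1.81% of all probe sets did. The Top2a difference was 0.16 ± 0.06 (adjusted p = 0.190, limma). Its adjusted p was 0.0252 with an intensity trend and 0.292 with the random block (limma). The other 8 ranged from -0.13 for Ncapg to 0.06 for Ncaph. For Mki67 the 95% interval ran from -0.14 to 0.16, and for Ncapd2 from -0.16 to 0.14.

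**Figure D5:**
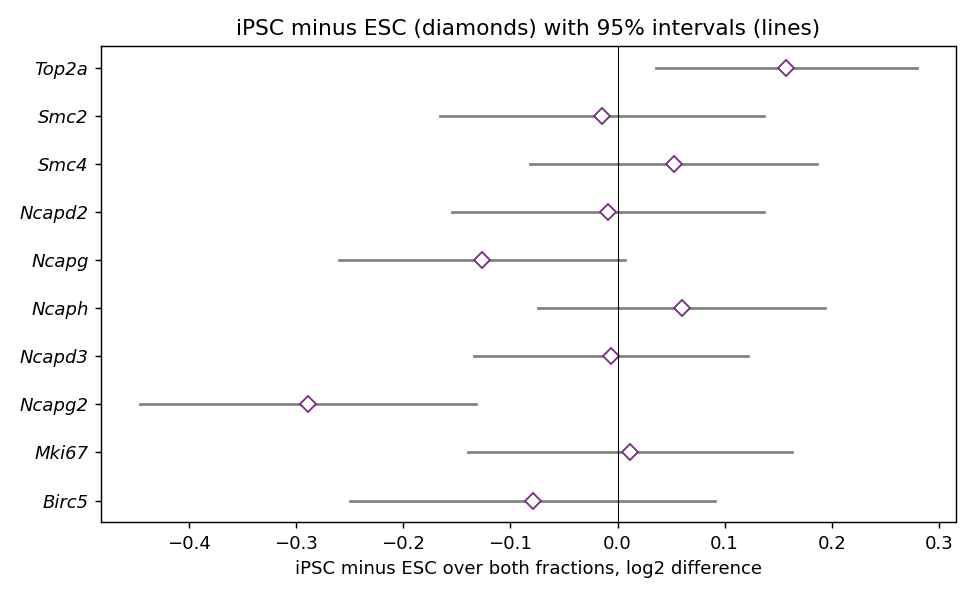
iPSC minus ESC log2 differences over both fractions (diamonds) with 95% intervals (lines), all open because no adjusted p was under 0.05. Ncapg2 at -0.29 and Top2a at 0.16 are the genes whose intervals do not reach 0.

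The genes whose values over the 12 arrays were most like each of the 10 were sought among 11229 named genes above the median level. Nearest to Top2a were Jpt1 (Pearson r = 0.98), Nusap1 (0.98) and the ubiquitin-conjugating enzyme Ube2c (0.97). Nearest to Smc4 were the kinesin Kif18b (0.94), the anaphase-promoting complex activator Fzr1 (0.92) and Cdca2 (0.92). Nearest to Ncapg2 were Phkb (0.96), Zfp655 (0.93) and the DNA repair gene Nbn (0.93), and to Ncaph Lin7b (0.95), Arl9 (0.93) and Igf2bp3 (0.93). Nearest to Mki67 were Jade2 (0.87), Reep4 (0.87) and Commd1 (0.84), and to Birc5 Nit1 (0.90), Copz1 (0.89) and the condensin II kleisin Ncaph2 (0.89). The first of 3 was Tcap for Smc2 (0.90), Fcsk for Ncapd2 (0.92), Ccdc68 for Ncapd3 (0.91) and Adgrg6 for Ncapg (0.92). Nearest to the mean of the 10 scaled profiles were Ccnf (0.93), Serinc4, Arhgap11a, Cenpe, Cdc25c, Mir382, Kif11, Wee1, Dcaf7 and Hmmr (0.90). Among the 10 themselves, the profile of Top2a was closest to that of Smc4 (0.91) and of Ncaph (0.86), and farthest from that of Ncapg2 (-0.54). With group means taken out, the profile closest to Top2a was that of Ncapg (0.70, against 0.27 before). Smc4 and Top2a were then at 0.59 and Ncaph and Top2a at -0.05. These correlations describe 12 arrays that share 2 sort fractions and 2 cell types, and have no test.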

How the data were processed

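The authors deposited log2 values for 25206 probe sets on 12 arrays. RMA, run in R 2.15.1 with affy 1.36.1, is named in the submitters' processing notes. Neither the chip definition nor its genome build is given in the sources used here. RMA subtracts background, quantile-normalizes arrays together and summarises probes per probe set. Platform annotation gave 1 symbol for 23185 probe sets, all found by gene number in a GRCm38.p6 gene table, with 0 symbols changed, and none for 2021.

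Tests used limma 3.58.1 in R 4.3.3: 1 mean per group over the 12 arrays, no block, Benjamini-Hochberg adjustment over all 25206 probe sets, threshold 0.05. Figures used matplotlib 3.10.9. Arrays of equal number in the low and high fractions of a cell type had residual correlations of 0.34, 0.23 and 0.28 in ESC and 0.11, 0.13 and 0.21 in iPSC, and were taken as pairs, an inference from the data; a replicate block was an alternative, with array centring, an intensity trend, a filter on dim probe sets (mean below the median of all means), fits to 1 cell type and leaving out arrays.

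The 10 genes and the lists were chosen with earlier results of these data known. From each list, the rule named up to 4 genes with the lowest p over both cell types. It also named the genes most like the 10. Alternatives for the lists were added after seeing the data. Not analysed here: Ccnb1, Naip1 and Lyz2.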

Additional observations from a re-analysis of the deposited data

How the results depend on the processing

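The rise of Top2a over both cell types kept its call and direction under every alternative run, with a log2 difference of 0.46 to 0.49 and an adjusted p of 0.0016 to 0.0042 (limma) when arrays were left out. The number of the 10 genes called over both cell types was 2, with Smc4, under an intensity trend and without dim probe sets, and 1 under each other setting. In fits to 1 cell type the number was 0 in iPSC and 0 in ESC, and with an intensity trend it was 2 in iPSC; the first rests on fewer arrays by construction. Leaving out 1 array gave 1 gene over both cell types, 0 to 1 in iPSC, 0 to 1 in ESC, 0 for the difference of the differences and 0 for iPSC versus ESC. For iPSC versus ESC the number was 1 with the replicate block (Ncapg2, adjusted p = 0.0363), where numbers are not taken as pairs since residual correlations between cell types were -0.09 to 0.13, 1 with centring, 1 without dim probe sets and 2 with an intensity trend. The replicate block within cell types changed no call of the 10 genes; Top2a had an adjusted p of 0.00472 over both, 0.0395 in iPSC and 0.0487 in ESC (limma).

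Values that changed sign were not called. With centring, these were Birc5 over both cell types (-0.0088), Ncapg in iPSC (-0.0024), Mki67 between cell types (-0.0027), and, for the difference of the differences, Smc2 (-0.017), Ncapd3 (-0.0090), Top2a (-0.023) and Mki67 (-0.023). Leaving out arrays gave ranges across 0 over both cell types (Birc5 -0.017 to 0.073 and Ncapd3 -0.042 to 0.00062) and in iPSC (Ncapd3 -0.046 to 0.039 and Birc5 -0.090 to 0.037). The same held for the difference of the differences (Smc2 -0.072 to 0.072, Ncaph -0.051 to 0.030, Top2a -0.014 to 0.042, Ncapd3 -0.0079 to 0.077, Mki67 -0.066 to 0.077 and Ncapg2 -0.11 to 0.027) and between cell types (Smc2 -0.037 to 0.031, Ncapd2 -0.046 to 0.015, Ncapd3 -0.031 to 0.012 and Mki67 -0.028 to 0.036). The causes were not tested.

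Leaving out 1 array, the whole-table count was 380 (without ESC high replicate 3) to 695 (without iPSC low replicate 2) over both cell types, in place of 631, and under 421 also without ESC low replicate 2, ESC high replicate 2, iPSC low replicate 4 or iPSC high replicate 4. In iPSC it was 1 (without iPSC high replicate 4) to 208, in ESC 19 to 111 and for iPSC versus ESC 394 to 680 in place of 724. The block called 940 probe sets over both cell types in place of 631, 236 in iPSC in place of 138, 177 in ESC in place of 90 and 1 in place of 0 for the difference of the differences. Fits to 6 arrays called 39 in ESC. With a random block of cell type and number (correlation 0.19), added after seeing the data, 463 were called between cell types in place of 724, and 0 of the 10 genes. Without dim probe sets 190 were called in iPSC, and 347 higher in iPSC than in ESC in place of 231. With an intensity trend 5 of 7 periphery genes and 1 cohesin gene were called, and the SMC5/6 list had 1 gene called lower with the block, centring, the trend and the dim filter. The same held without ESC high replicate 4 or iPSC high replicate 2; the cohesin count was 1 without dim probe sets or iPSC low replicate 4, and the apoptosis inhibitor count 1 without iPSC high replicate 2.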

Other observations

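Some partners of these complexes differed between the cell types. Of 16 cohesin genes 1 was lower in iPSC than in ESC, the cohesin regulator Pds5b (-0.30 ± 0.07; adjusted p = 0.0300, limma). Of 9 SMC5/6 genes 1 was lower, the ATPase arm Smc6 (-0.41 ± 0.06; adjusted p = 0.00248, limma). Of 10 other topoisomerase and repair genes 2 were lower, Top1 (-0.31 ± 0.07; adjusted p = 0.0263, limma) and Tdp1, which removes stalled TOP1 from DNA (-0.31 ± 0.07; adjusted p = 0.0332, limma). In the same comparison 0.916% of all probe sets were called higher and 1.96% lower. Of 20 G1/S genes 2 were lower in iPSC, the ribonucleotide reductase subunit Rrm2 (-0.52 ± 0.07) and the helicase subunit Mcm7 (-0.26 ± 0.06), and 0 of 23 other G2/M genes passed. With high and low arrays of the same number treated as correlated pairs (a random block in limma, added after seeing the data), the adjusted p of Smc6 was 0.00590 and that of Rrm2 0.00597. The other calls were lost, with adjusted p of 0.0597 for Pds5b, 0.0533 for Top1, 0.0588 for Tdp1 and 0.0576 for Mcm7. Pds5b, Top1, Rrm2 and Mcm7 were named after their values were seen.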
